A study of Caenorhabditis elegans with 6 samples.

Results

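The unfolded protein response of the endoplasmic reticulum was examined through 10 genes of Caenorhabditis elegans: the stress sensors ire-1, pek-1 and atf-6, the transcription factor gene xbp-1, the chaperone genes hsp-3, hsp-4, crt-1 and cnx-1, and the protein disulfide isomerase genes pdi-1 and pdi-2. The genes were taken as a list of known ER sensors and chaperones, and every non-control probe whose design name maps to one of them was used. They are 10 of 15541 named genes tested, and are reported by 35 of the 43603 probes on the array. The comparison was between 2 strains, each with 3 arrays of RNA from whole pre-reproductive young adults: RB1035, a flcn-1 mutant that had been backcrossed 8 times to the wild type, and the wild type itself, called WTN2. RB1035 is 1 strain with 1 allele, the replicates are stated to be biological, and both strains were grown on agar with OP50 bacteria after synchronisation from eggs. The gene flcn-1 encodes the worm folliculin, a protein that acts with AMP-activated kinase and TOR signalling.

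The endoplasmic reticulum folds secreted and membrane proteins, and unfolded protein there is sensed by transmembrane proteins that change transcription and translation. IRE-1 is a kinase and endoribonuclease that cuts a short intron out of the xbp-1 message, so that an active XBP-1 transcription factor is made. PEK-1, the worm PERK, phosphorylates the translation initiation factor eIF2 alpha, and ATF-6 is a membrane-bound transcription factor. The chaperone gene hsp-4, one of a pair of worm BiP genes with hsp-3, is the usual reporter of the IRE-1 and XBP-1 branch in this animal. The level of the xbp-1 message measured here is no measure of its cutting by IRE-1, as the files used here hold no probe sequences from which a probe over the intron could be recognised.

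Levels are log2 processed signals minus the 75th percentile of the array's probes, so that a level of 0 lies at that percentile. A difference is the mean of the mutant levels minus the mean of the wild type levels, and was tested with limma over 19820 features (genes and unnamed probes) with Benjamini-Hochberg adjustment. A probe's level depends on the probe, so levels were compared between arrays and not between genes. Each array had 68.05% to 73.1% of its probes well above background, and none saturated. The 6 arrays lay on 2 slides: slide 1 held mutant 1 and wild type 1, and slide 2 held mutants 2 and 3 and wild types 2 and 3. Copies of the same probe varied by a median of 22.4% and 20.9% on mutants 2 and 3, against 8.19% on mutant 1 and 8.46% to 10.9% on the wild type arrays, and the part of this spread in the results was not tested. The targeted gene flcn-1 had levels of -0.11, 0.37 and 0.49 on mutants 1, 2 and 3 and of 0.73, 0.16 and 0.20 on wild types 1, 2 and 3, a difference of -0.11 (95% CI -0.80 to 0.58, limma adjusted p = 0.901). These values are of the brightest of the 4 flcn-1 probes, and its difference was -0.84 on slide 1 and 0.25 on slide 2. The sources used here do not place the allele's lesion relative to the probe, so this level does not check the strain labels.

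None of the 10 genes passed the threshold, an adjusted p of 0.05, in either direction. Over all features 20 did, which is 0.101% of those tested. The differences of the 10 genes ran from -0.22 for cnx-1 to 0.56 for hsp-3, with 8 above and 2 below 0 and a median of 0.27. Over all features 50.3% were above 0 and the median was 0.0036. Adjusted p ranged over the 10 genes between 0.673 and 0.952 by limma, and no gene had an unadjusted p under 0.05. The smallest unadjusted p was that of hsp-3 (0.201), and 29.8% of all features had a smaller one. In size, 4 of the 10 genes differed by more than the median feature, whose absolute difference was 0.33.

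The count of 8 genes above 0 became 9 without mutant 2 alone and stayed at 8 without mutant 3 alone. With both left out, so that mutant 1 alone stood against the 3 wild type arrays and was assumed to vary as they do, 4 of 10 genes were above 0 and the median was -0.02. Mutant 1 is the only mutant array of slide 1, so array and slide cannot be told apart here. On slide 1, 5 of 10 differences were above 0, and on slide 2, 8 were. With normexp background correction 8 of the 10 genes were above 0, as were 65.7% of all features. The median difference was then 0.14 for the 10 genes, and that of all features was 0.18. Relative to that value 4 of the 10 genes were higher in the mutant (pek-1, atf-6, hsp-3 and pdi-1) and 6 were lower.

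All 10 genes were well above background on all 6 arrays by their brightest probe, and the 2 strains overlapped in each of them. Over all features, all mutant arrays lay above all wild type arrays in 5.22% and below them in 6.74%. The 95% confidence interval of the brightest probe lay above a 2-fold fall for all 10 genes, and below a 2-fold rise for 6 of them (ire-1, xbp-1, hsp-4, crt-1, cnx-1 and pdi-2). For pek-1, atf-6, hsp-3 and pdi-1 a 2-fold rise lay inside it. Other probes of the same genes did not all bear out these limits. On the log2 scale, where 2-fold is 1, upper bounds reached 1.05 on a probe of xbp-1, 1.73 on one of pdi-2 and 2.11 on one of crt-1. Lower bounds of the other crt-1 probes were -1.81, -1.74, -1.12 and -2.50. For hsp-4 the upper bound was 0.99 in the fit over features and 1.004 for the same probe in the fit over all probes, so a 2-fold rise lay at the edge of its interval.

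**Figure D1:**
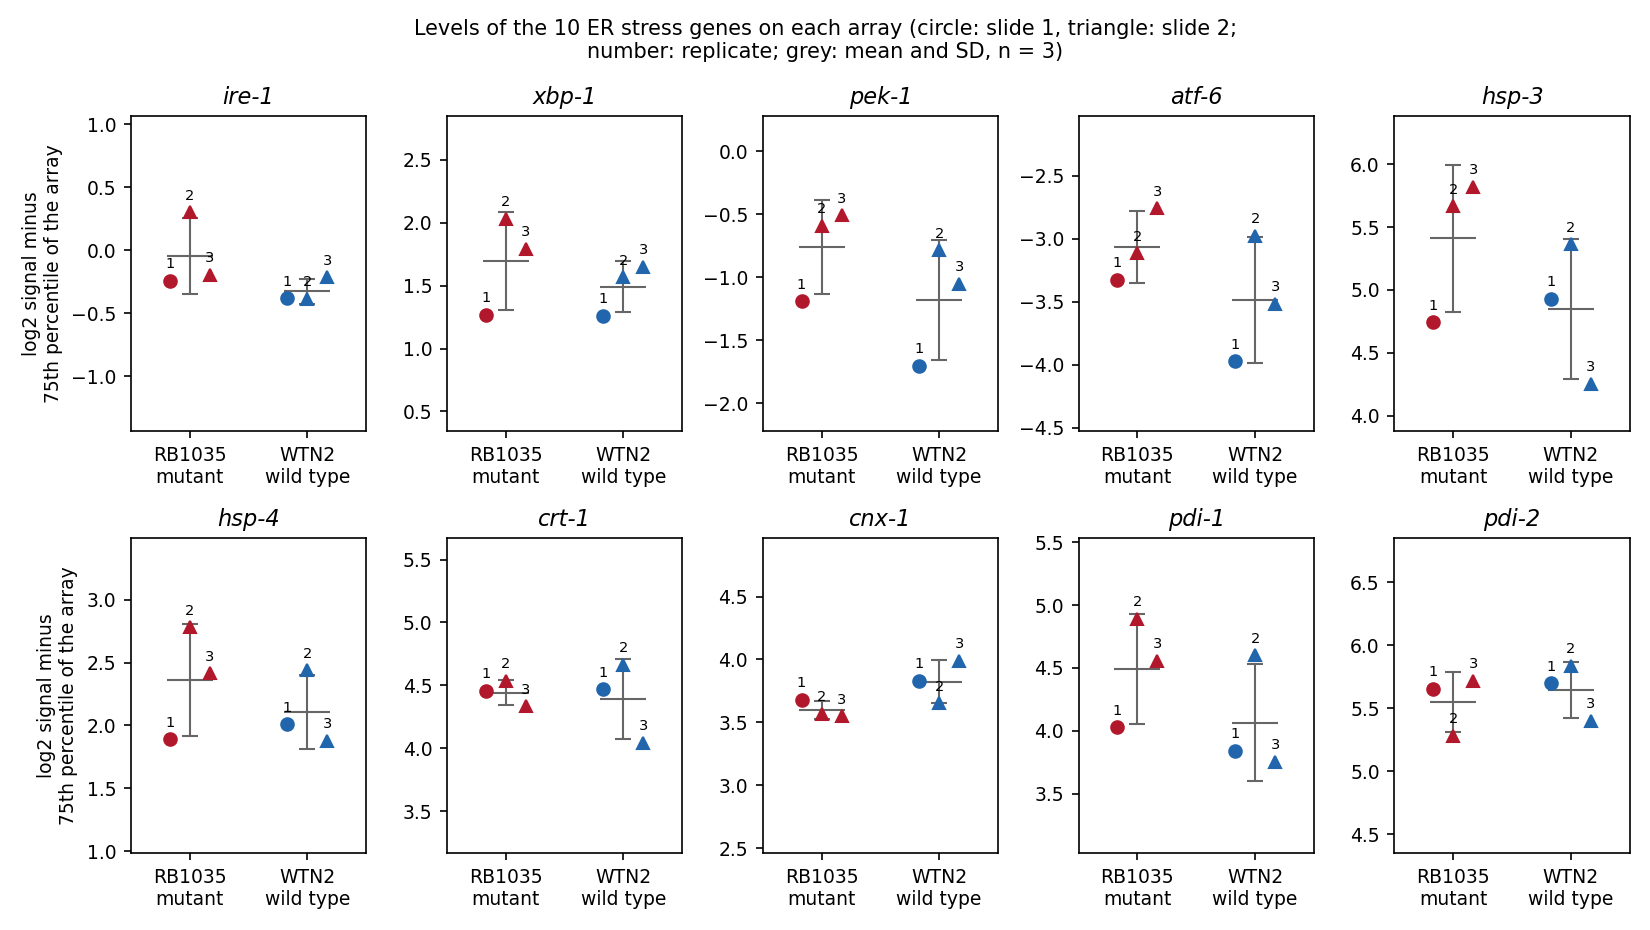
Level of each of the 10 genes (y axis, log2 signal minus the 75th percentile of the array, with the same height in every panel) on the mutant arrays (left, red) and the wild type arrays (right, blue). Circles are slide 1, triangles slide 2, digits the replicate, and grey marks the mean and SD of 3 arrays; in every panel the strains overlap.

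Of the sensors, ire-1 on chromosome II had levels of -0.24, 0.30 and -0.20 on mutants 1, 2 and 3, against -0.38, -0.39 and -0.22 on wild types 1, 2 and 3. Mutant 2 stood above the rest, and the other arrays lay close together. The difference was 0.28 ± 0.27 (SE), with a 95% CI of -0.35 to 0.91 (limma adjusted p = 0.731). It was 0.11 without mutant 2. As a fold, ire-1 was 1.22 times as high in the mutant, with an interval of 0.787 to 1.88, so that a rise of 2-fold lies outside it. One probe reports this gene.

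The PERK gene pek-1, on chromosome X, had levels of -1.19, -0.59 and -0.51 on mutants 1, 2 and 3 and of -1.71, -0.79 and -1.05 on wild types 1, 2 and 3. By this brightest probe replicate 1, the array of slide 1, was the lowest on both strains. The difference was 0.42 ± 0.34 (limma adjusted p = 0.692), or 1.34-fold with a 95% CI of 0.777 to 2.30. Slide 1 gave 0.51 and slide 2 gave 0.37. Without wild type 1 it was 0.16. The dimmer of its 3 probes differed less, by 0.12 and 0.10. The probe with 0.12 gave 0.33 on slide 1 and 0.02 on slide 2. The probe with 0.10 gave 0.73 on slide 1 and -0.21 on slide 2, so its sign differed between slides.

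The third sensor gene, atf-6 on chromosome X and reported by 3 dim probes with mean processed signals of 115.1 to 203, had levels of -3.33, -3.12 and -2.76 on mutants 1, 2 and 3, against -3.97, -2.98 and -3.52 on wild types 1, 2 and 3. Mutant 3 was the highest and wild type 1 the lowest, and wild type 2 lay above mutants 1 and 2. The difference was 0.42 ± 0.33 (95% CI -0.34 to 1.19, limma adjusted p = 0.686), and 0.18 without wild type 1. Its other probes differed by 0.57 and 0.17, so all 3 were on the same side of 0. On the probe with 0.57 every mutant array lay above every wild type array (adjusted p = 0.674 by limma over all probes). Over all features, each by its brightest probe, 5.22% did so. That atf-6 probe gave 0.05 on slide 1 and 0.82 on slide 2.

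The message of xbp-1, on chromosome III, had levels of 1.27, 2.03 and 1.79 on mutants 1, 2 and 3 and of 1.26, 1.57 and 1.65 on wild types 1, 2 and 3. The arrays of slide 1 were nearly equal and lowest, and both mutant arrays of slide 2 lay above both wild type arrays of that slide. The difference was 0.21 ± 0.30 (95% CI -0.48 to 0.89, limma adjusted p = 0.809). By this brightest probe it was 0.0099 within slide 1 and 0.30 within slide 2. Without mutant 2 it was 0.04. With mutants 2 and 3 both left out its sign turned, to -0.22. Of its 3 probes, 2 were designed on the transcript R74.3b.1 and differed by 0.21 and 0.24, and 1 was designed on R74.3a and differed by 0.24. The probes of both transcript models thus differed in the same direction. On slides 1 and 2 the dimmer R74.3b.1 probe gave 0.17 and 0.28, and the R74.3a probe gave 0.34 and 0.19. The near equality on slide 1 was thus seen on the brightest probe only.

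**Figure D2:**
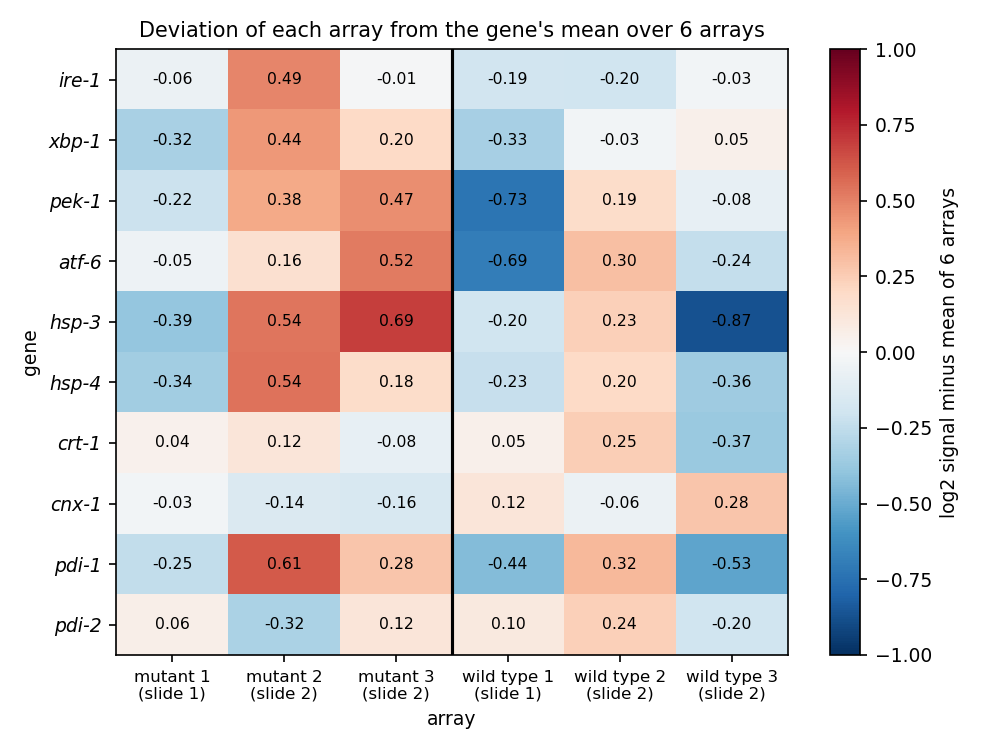
Deviation of each array (columns, mutants left of the line and wild types right of it) from a gene's mean over the 6 arrays (rows), in log2 units and coloured from blue (lower) to red (higher). Mutants 2 and 3 and wild type 2 hold most of the positive values. They are the 3 highest arrays in 5 genes (pek-1, atf-6, hsp-3, hsp-4 and pdi-1), and the other genes follow other orders.

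Among chaperones hsp-4, the inducible BiP gene on chromosome II, had levels of 1.89, 2.78 and 2.42 on mutants 1, 2 and 3, against 2.01, 2.44 and 1.88 on wild types 1, 2 and 3. Mutant 2 was the highest array, but mutant 1 lay below wild type 1 and at the level of wild type 3. The difference was 0.25 ± 0.32 (95% CI -0.49 to 0.99, limma adjusted p = 0.783), or 1.19-fold with an interval of 0.714 to 1.99. Slide 1 gave -0.12 and slide 2 gave 0.44, and leaving out mutant 2 gave 0.05. With mutants 2 and 3 left out it was -0.22. This gene has 1 probe on the array.

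The second BiP gene, hsp-3 on chromosome X, is expressed without stress and gave the largest difference of the 10. Its levels were 4.74, 5.67 and 5.82 on mutants 1, 2 and 3, against 4.93, 5.36 and 4.26 on wild types 1, 2 and 3. Mutants 2 and 3 lay above every wild type array, while mutant 1 lay below 2 of them. The difference was 0.56 ± 0.40 (95% CI -0.36 to 1.48, limma adjusted p = 0.673). Slide 1 gave -0.19 and slide 2 gave 0.93. Without wild type 3 it was 0.26, without mutant 1 it was 0.89, and without mutants 2 and 3 it was -0.11.

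The array holds 9 probes for hsp-3, of which 1 was left out for an outlier flag. All 8 others gave a difference above 0, from 0.11 to 0.91. On slide 1, though, 4 of the 8 were above 0 (-0.34 to 0.65), and on slide 2, 7 of 8 (-0.15 to 1.54). The 5 brightest, all designed on the transcript C15H9.6.2, differed by 0.17 to 0.56. The widest difference came from a sixth probe on that transcript, with levels of 3.63, 4.89 and 4.09 on mutants 1, 2 and 3 and of 3.97, 3.14 and 2.77 on wild types 1, 2 and 3 (0.91 ± 0.43, adjusted p = 0.674 by limma over all probes). HSP-3 and HSP-4 are close relatives, and whether their probes also bind the other message was not tested.

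Calreticulin and calnexin hold glycoproteins in the reticulum until they are folded. The calreticulin gene crt-1, on chromosome V, had levels of 4.46, 4.54 and 4.33 on mutants 1, 2 and 3, against 4.47, 4.67 and 4.04 on wild types 1, 2 and 3. Wild type arrays were both the highest and the lowest, and the mutant arrays lay between them. The difference was 0.05 ± 0.28 (95% CI -0.59 to 0.68, limma adjusted p = 0.952), with no fixed sign: it was -0.13 without wild type 3 and -0.08 with normexp. A 2-fold change in either direction lies outside the interval of this brightest probe, but a 2-fold fall lies inside those of its other probes.

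The 4 dimmer probes of crt-1 disagreed with the brightest one and with each other, and each had an interval that includes a 2-fold fall. They differed by -0.59, 0.19, -0.24 and -0.93, and on slide 1 they were all above 0 while on slide 2 they were all below 0 (down to -1.79). The mutant arrays lay far apart on these probes, with ranges of 1.33 to 3.56 against 0.22 to 0.54 on the wild type arrays. One of these probes had 2.93 on mutant 2 and -0.62 on mutant 3, against 1.36 to 1.59 on the wild type arrays. Another had -1.44 on mutant 2 and 1.74 on mutant 1. The mean of all 5 probes gave a difference of -0.30 (limma adjusted p = 0.79, with 0.79 to 1 over all alternatives).

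The calnexin gene cnx-1, on chromosome III, was the only gene of the 10 with a difference below 0 under every alternative run. The differences of ire-1 and atf-6 likewise kept their sign, above 0, under every alternative. Levels of cnx-1 were 3.68, 3.57 and 3.55 on mutants 1, 2 and 3, against 3.83, 3.65 and 3.99 on wild types 1, 2 and 3. Mutants 2 and 3 lay below every wild type array, and mutant 1 lay just above wild type 2. The difference was -0.22 ± 0.25 (95% CI -0.81 to 0.36, limma adjusted p = 0.759), and slides 1 and 2 gave -0.15 and -0.26. Leaving out single arrays gave -0.31 to -0.14. It had the narrowest range over the 6 arrays, at 0.44, against a median of 1.15 for all features.

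Protein disulfide isomerases form and reshuffle disulfide bonds, and PDI-2 also serves as a subunit of the worm collagen prolyl hydroxylases. For pdi-1, on chromosome III, levels were 4.03, 4.89 and 4.56 on mutants 1, 2 and 3, against 3.84, 4.60 and 3.75 on wild types 1, 2 and 3. Mutant 2 was the highest and wild type 3 the lowest, and wild type 2 lay above mutants 1 and 3. The difference was 0.43 ± 0.35 (95% CI -0.38 to 1.23, limma adjusted p = 0.695). Slide 1 gave 0.19 and slide 2 gave 0.55, and without mutants 2 and 3 it was -0.04.

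For pdi-2, on chromosome X, levels were 5.66, 5.28 and 5.72 on mutants 1, 2 and 3, against 5.70, 5.84 and 5.40 on wild types 1, 2 and 3. Mutant 2 was the lowest array here, unlike in pdi-1. The difference was -0.09 ± 0.28 (95% CI -0.73 to 0.54, limma adjusted p = 0.909). Of its 8 probes, whose mean signals spanned 303-fold, 6 were above 0 and 2 below, from -0.09 to 0.54. The mean of the 8 probes differed by 0.19, so the sign of pdi-2 depended on the probe.

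**Figure D3:**
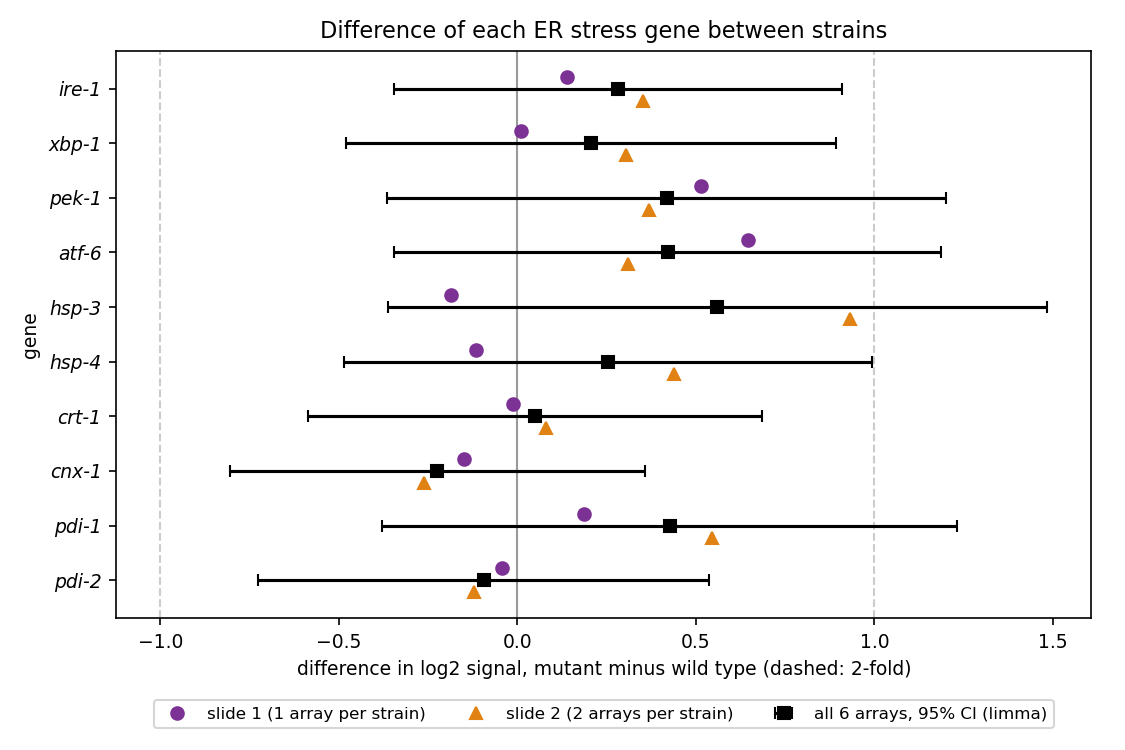
Difference of each gene between strains (x axis, log2 signal, mutant minus wild type) over all 6 arrays with the 95% confidence interval (squares), on slide 1 (circles) and on slide 2 (triangles). Every interval includes 0, and for hsp-3, hsp-4 and crt-1 the slides lie on opposite sides of 0.

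At the level of single probes, 34 of the 35 were tested, and all 34 were well above background on all 6 arrays. None passed the threshold, against 29 of 31224 probes on the whole array (0.0929%). None had an unadjusted p under 0.05 either. Of the 34, 28 were above 0 and 6 below. Probes of 1 gene read the same RNA, so this count adds nothing independent. All probes of xbp-1, pek-1, atf-6 and hsp-3 were above 0, while crt-1 and pdi-2 had probes on both sides.

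**Figure D4:**
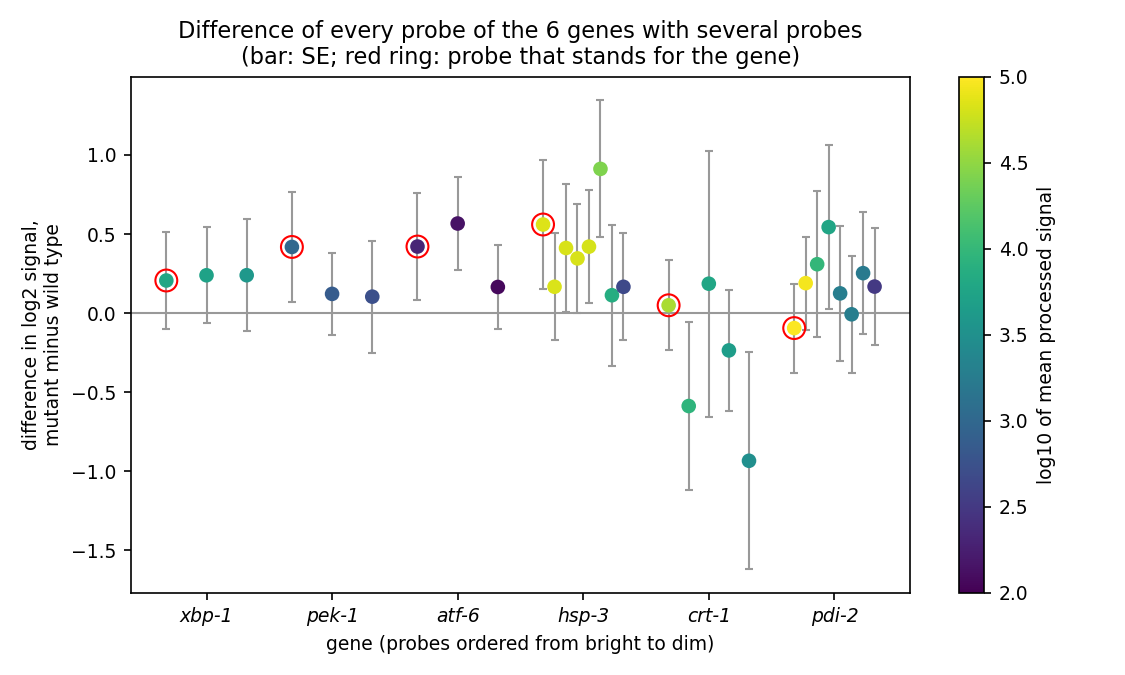
Difference of every tested probe (y axis, log2 signal, mutant minus wild type, with SE) of the 6 genes with several probes, ordered from bright to dim and coloured by mean processed signal. The red ring marks the brightest probe, which stands for the gene; the probes of crt-1 spread from -0.93 to 0.19.

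In the order of the arrays, 5 genes were alike: pek-1, atf-6, hsp-3, hsp-4 and pdi-1 each had mutant 2, mutant 3 and wild type 2 as their highest 3 arrays. Over all features 12.7% did. This order was noticed after the values were seen. The mean deviation of the 10 genes was 0.28, 0.22 and 0.15 on those arrays, and -0.16, -0.26 and -0.23 on mutant 1, wild type 1 and wild type 3. The mutant arrays thus lay on both sides of 0, and so did the wild type arrays.

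Tissue markers were measured in the same comparison. Pharynx markers were above 0 in 10 of 10 tested members (median 1.23), with summed levels of 11.8 to 23.4 on the mutant arrays and 7.91 to 14.6 on the wild type arrays, in units of the array's 75th percentile. Body wall muscle markers were above 0 in 9 of 9 (median 1.18), with sums of 177 to 285 in the mutant and 149 to 210 in the wild type, but the list's median was -0.09 on slide 1 and 1.85 on slide 2. Oocyte and germline markers were above 0 in 12 of 12 (median 0.43; sums of 120.7 to 176 in the mutant and 76.5 to 153 in the wild type), with list medians of -0.10 on slide 1 and 0.79 on slide 2. Intestine markers were above 0 in 10 of 13 (median 0.20; 342 to 496 in the mutant and 269 to 545 in the wild type), those of hypodermis and cuticle in 6 of 8 (median 0.28; 66.2 to 70.6 in the mutant and 57.7 to 99.5 in the wild type), and neuron markers in 8 of 10 (median 0.22; 18.3 to 21.6 in the mutant and 12.9 to 21.2 in the wild type). Sperm markers were below 0 in 7 of 9 (median -0.59; 67.5 to 95.4 in the mutant and 87.2 to 111 in the wild type). Between slides 1 and 2 the medians also differed in sign for the intestine list (-0.14 and 0.18) and the hypodermis and cuticle list (-0.03 and 0.62). They had the same sign on both slides for the pharynx (0.85 and 1.44), sperm (-0.38 and -0.77) and neuron lists (0.22 and 0.20). No marker passed the threshold, and of those with a probe only dpy-13 was not tested, since its probe was flagged as an outlier on mutant 2. Pharynx and muscle deviations were, like those of the 10 genes, highest on mutants 2 and 3 and wild type 2. The other lists did not share this order. For intestine, oocyte and germline, and hypodermis and cuticle, wild type 1 stood in place of wild type 2. For neurons mutant 1 stood in place of mutant 3, and sperm deviations were highest on the wild type arrays. In RNA of whole animals, fewer cells of a tissue and less RNA per cell cannot be told apart. The part of tissue content in the levels of the 10 genes was not tested.

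Around the 10 genes, 74 further genes were tested in 7 lists, which cover protein folding, collagen hydroxylation, degradation, translation control, the translocon and N-glycosylation. None passed the threshold, 38 were above 0 and 36 below, and the median was 0.01. The other ER folding genes had a median of 0.02, with 8 of 15 above 0. Smallest in p were fkb-4 (-0.77 ± 0.35) and fkb-5 (-0.52 ± 0.31), of the FK506-binding prolyl isomerases, and stc-1 (-0.64 ± 0.31), a relative of HSP70 in the reticulum, with limma adjusted p of 0.65 to 0.653. In fkb-4 and stc-1, 2 of the 74 genes, every mutant array lay below every wild type array, against 6.74% of all features. In 1 of the 74, dve-1 of the mitochondrial list, every mutant array lay above every wild type array, against 5.22% of all features. For stc-1 slide 1 gave -0.05 and slide 2 gave -0.94. The GRP94 gene enpl-1 differed by 0.04 and the oxidoreductin gene ero-1, which reoxidises the disulfide isomerases, by 0.19. Genes that hydroxylate collagen, some with PDI-2 as partner, were split: dpy-18 differed by 0.58, phy-2 by -0.43 and the lysyl hydroxylase gene let-268 by -0.08, with a median of -0.06 over 4 genes.

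Genes of ER-associated degradation, which returns misfolded protein to the cytosol, were above 0 in 9 of 16, with a median of 0.02. The derlin gene cup-2 differed by 0.67 by its brightest probe and by as little as -0.15 by another. The ubiquitin ligase gene sel-11 (HRD1) differed by 0.42 and its partner sel-1 by 0.31, and the conjugating enzyme gene ubc-7 by -0.37. Of translation control and partners of the response, 1 of 8 was above 0 (median -0.07). That gene was gcn-2, the other eIF2 alpha kinase besides pek-1, at 0.59 (-0.33 on slide 1 and 1.05 on slide 2). The initiation factor gene eif-2A differed by -0.33 and the choline kinase gene ckb-2 by -0.18. No gene of these lists passed the threshold.

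The list of the translocon and N-glycosylation, which brings proteins into the reticulum and adds sugars, had the same median as the 10 genes, 0.27, with 13 of 17 above 0. The subunit genes sec-61.B and sec-61.A differed by 0.60 and 0.53, and the signal peptidase gene spcs-1 by -0.88 (limma adjusted p of 0.653 to 0.673). Slides 1 and 2 differed in sign for sec-61.A (-0.41 and 1.01) and for spcs-1 (0.19 and -1.41). The list's median was -0.01 on slide 1 and 0.46 on slide 2, and that of the 10 genes was -0.0017 and 0.33. Outside the reticulum, the mitochondrial unfolded protein response had a median of -0.06 (3 of 8 above 0). Its regulator genes dve-1 and ubl-5 differed by 0.56 and -0.32, and dnj-10 by -0.44, and the 3 probes of dve-1 ran from -0.56 to 1.57. The cytosolic HSP70 and HSP90 list had a median of 0.02 (3 of 6 above 0). Its HSP90 gene, daf-21, had no match by name and was not tested, so the list gives no level of HSP90 itself. In this list hsp-1, the constitutive cytosolic HSP70, differed by 0.47 by its brightest probe and hsp-110 by 0.04. The 6 probes of hsp-1 ran from -0.29 to 0.47, and the brightest gave -0.10 on slide 1 and 0.75 on slide 2. Of the other genes named from these lists, ero-1, enpl-1, sel-11, sel-1, ubc-7, ckb-2, dnj-10 and hsp-110 also had differences of opposite sign on the 2 slides, and ubc-7 and eif-2A had probes on both sides of 0. The kinase co-chaperone gene cdc-37 differed by 1.30, with -0.78 within slide 1 and 2.34 within slide 2 (limma adjusted p = 0.65).

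**Figure D5:**
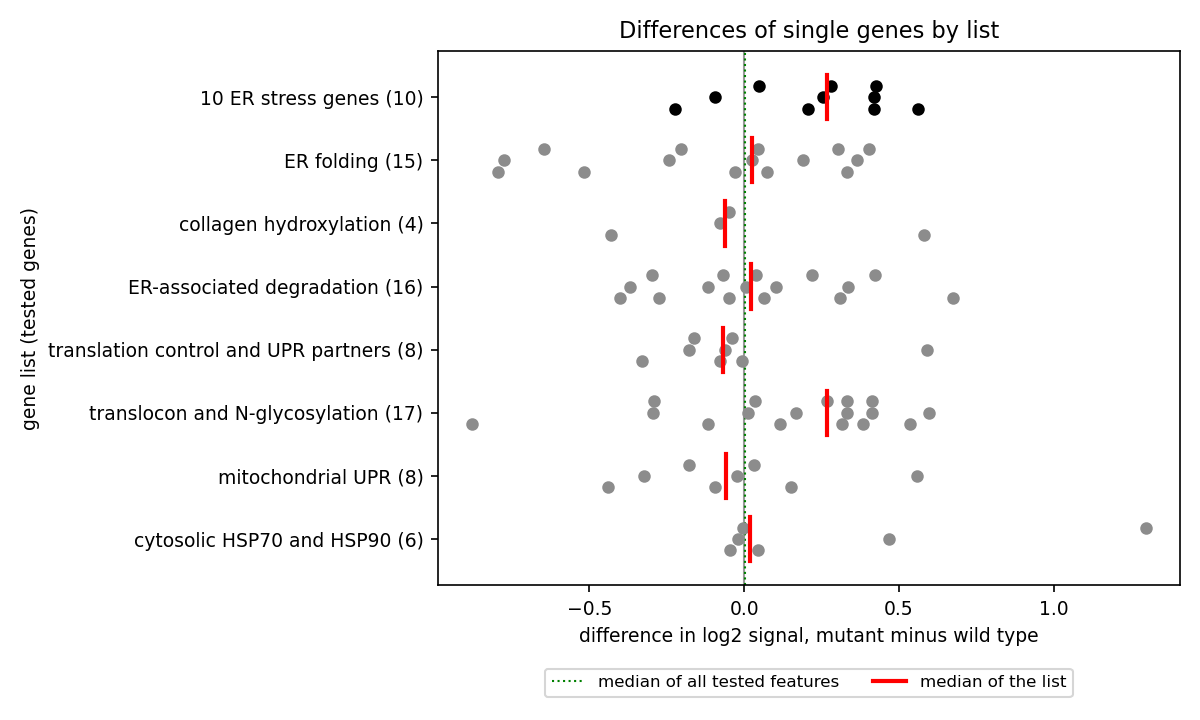
Difference of single genes (x axis, log2 signal, mutant minus wild type) for the 10 genes (black) and the 7 further lists (grey), with the median of each list in red and of all features as a dotted line. The 10 genes and the translocon list have medians of 0.27, and the other lists lie within 0.1 of 0.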

How the data were processed

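Each array measured Cy3-labelled RNA of 1 sample, and the titles gave each array's strain. Per the file headers, intensity values were made with Feature Extraction 10.7.3.1 from a design on build ce4. The deposited processed signal intensity is background-subtracted and divided by a fitted surface, with no scaling between arrays. The root mean square of that fit is listed as 0 for mutant 2 and as 0.14 to 0.3 for the other arrays. Whether the signals of mutant 2 were divided by such a surface was not tested. The authors' deposited series table holds log2 levels, by steps that are not given in the files or labels. It served as an alternative: its columns had medians of 7.61 and followed the scanner values (Spearman's rho across probes 0.984 to 0.993), so they are levels with no centring of genes, while their exact scaling stays unknown.

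The log2 of the processed signal, averaged over spots of a probe, minus each array's 75th percentile over 43603 non-control probes was used. The 149 probes flagged as outliers on 1 array or more and those well above background on fewer than 3 arrays were left out, which left 31224. The brightest probe stood for a gene. Names came from a RefSeq table of assembly WBcel235 by sequence name or accession (35389 probes named, 8214 not). No coordinates are given, since the array uses another build. Promoter motifs were not analysed here. limma 3.58.1 (R 4.3.3, lmFit and eBayes, two-sided) was fitted to all 6 arrays, and the code was tested on simulated data.

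The members, lists and rules were chosen with earlier results of these data known. Named are the 10 members, flcn-1, up to 3 genes with the smallest p in each further list and 8 genes fixed by name. Of 82 list genes 8 had no match in the table. Alternatives were normexp on median signals (offset 50), quantile and median scaling, other filters, the mean of probes, the series table, slide or replicate number as a block, slide 2 alone, and leaving out arrays. The files hold no mean spot signal, so the normexp version on it was not run.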

Additional observations from a re-analysis of the deposited data

How the results depend on the processing

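None of the 10 genes passed the threshold under any of the 17 alternatives, and their adjusted p stayed between 0.33 and 1. The number of features that changed was 20, and 11 with normexp, 1 with the filter on dim probes set to all 6 arrays, and 17 to 20 when single arrays were left out. The difference of crt-1 turned to -0.0788 with normexp, -0.30 with the mean of its probes and -0.0625 in the series table, and that of pdi-2 to 0.022, 0.19 and 0.0909. Without single arrays crt-1 ranged from -0.13 (without wild type 3) to 0.19, and pdi-2 from -0.22 to 0.0408 (above 0 without mutant 2 and without wild type 2). Leaving out mutants 2 and 3, an alternative chosen after seeing the data like normexp on median signals, left 4 genes above 0 with a median of -0.0227. It turned xbp-1 to -0.22, pek-1 to -0.0089, hsp-3 to -0.11, hsp-4 to -0.22, pdi-1 to -0.0365 and pdi-2 to 0.0089. When only single arrays were left out, the median of the 10 genes ranged from 0.08 without mutant 2 to 0.45 without mutant 1. The count above 0 then ranged from 7 to 9. The cause of these turns was not tested. With the replicate number as a block 30 features changed, none of them among the 10 genes. Deviations of same-numbered arrays correlated at 0.12, 0.12 and 0.02, and not every array correlated best with its own number, so the numbers were not taken as pairs. With 3 arrays per strain the precision is limited to a standard error of 0.25 to 0.40 for these genes.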
